A study of Mus musculus with 4 samples.

Results

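The genes described here encode the enzymes that burn fatty acids in mitochondria and peroxisomes, with a few that feed or steer that pathway. They were chosen by name, as 34 genes whose symbol stands in the gene name column of the scanner files. The rule used no measured values, but earlier results of these data were known when the genes were chosen. The arrays carried 42 probes for them, of which 41 were well above background on at least 1 array, so that all 34 genes were measured, among 16659 genes measured in the whole series. The probe left out is one of the pair for Acot3.

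Cardiac mesenchymal progenitors (CMPs) are Sca-1+ cells grown from the hearts of adult C57BL/6 mice, taken from the atria by the study's methods. The CMP control was untreated and carries the label day 0. The other cells received Oct4, Sox2, Klf4 and c-Myc (OSKM, spelled OKSM in the treatment label) from Sendai virus and were collected as OSKM-CMPs on days 4, 6 and 8. They were kept, by the methods, in a reprogramming medium without leukemia inhibitory factor, whereas the CMP control is described in growth medium with serum and bFGF. Time in culture, medium, infection with the virus and the factors therefore cannot be told apart. RNA from each of the 4 conditions was read on 1 single-colour Agilent array, and all the arrays were read in the same scan. No condition had a replicate, so no p-value is given, and the sources used here do not say how many animals or cultures stood behind an array. The changes on all 3 days are measured against the same CMP control array.

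A level below is the log2 signal of a gene relative to the 75th percentile of its array, and a change is the difference between the levels of 2 arrays. The errors (±) are 1 SD from the error model of the scanner software. They cover the spot and not the culture, and the median error of a day 8 change over all genes was 0.20. A change of at least 2-fold, or 1 on the log2 scale, was counted as a rise or a fall. Levels of different genes come from different probes and are not compared. The 5 CMP markers (Ly6a, which encodes Sca-1, Pdgfra, Thy1, Eng and Cd44) were above background on all 4 arrays but did not hold their levels. At day 8 Ly6a rose by 2.69 and Pdgfra changed by 0.71, while Thy1 fell by 1.78, Eng fell by 1.19 and Cd44 changed by -0.54.

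In β-oxidation, a fatty acid activated as an acyl-CoA is shortened by a cycle of dehydrogenation, hydration, a second dehydrogenation and thiolysis, and each turn releases acetyl-CoA. Long chains enter mitochondria through the carnitine shuttle, while very long and branched chains are first shortened in peroxisomes. Many genes of the pathway are known targets of the PPAR nuclear receptors, which bind a direct repeat of AGGTCA with a single base between the repeats. Heart muscle and brown fat are known for high rates of this pathway, and white adipocytes mainly store and release fatty acids.

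RefSeq promoter windows (GRCm38.p6), which run from 250 bases before a start site to 50 after it, were at hand for 29 of the 34 genes (31 windows, since Acox2 and Acot3 have 2 starts each). The windows of 4 genes are shown because they belong to genes whose RNA moved very differently. Pdk4 (chr6:5496229-5496528, minus strand), Pex11a (chr7:79743082-79743381, minus strand) and Hadh (chr3:131272052-131272351, minus strand) rose at least 2-fold at all of the 3 days. Hadhb (chr5:30155003-30155302, plus strand) stayed within 0.27 of the control, and 228 bases of its window are also the window of Hadha on the other strand, since the start sites of these neighbours lie 273 bases apart. Capitals mark a CCAAT box (CCAAT, or ATTGG on the other strand) and a GC box (GGGGCGGGG, or CCCCGCCCC on the other strand).
Pdk4: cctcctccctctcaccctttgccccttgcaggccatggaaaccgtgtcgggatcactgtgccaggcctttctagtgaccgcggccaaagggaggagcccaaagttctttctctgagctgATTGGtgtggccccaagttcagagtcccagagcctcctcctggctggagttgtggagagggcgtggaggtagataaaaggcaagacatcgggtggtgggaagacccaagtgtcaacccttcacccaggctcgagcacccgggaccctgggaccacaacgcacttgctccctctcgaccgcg
Pex11a: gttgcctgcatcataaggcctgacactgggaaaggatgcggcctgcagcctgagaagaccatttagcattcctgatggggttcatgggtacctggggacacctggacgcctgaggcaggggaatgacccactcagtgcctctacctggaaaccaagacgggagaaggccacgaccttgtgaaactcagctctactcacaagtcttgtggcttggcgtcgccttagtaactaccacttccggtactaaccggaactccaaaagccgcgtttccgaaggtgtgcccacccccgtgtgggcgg
Hadh: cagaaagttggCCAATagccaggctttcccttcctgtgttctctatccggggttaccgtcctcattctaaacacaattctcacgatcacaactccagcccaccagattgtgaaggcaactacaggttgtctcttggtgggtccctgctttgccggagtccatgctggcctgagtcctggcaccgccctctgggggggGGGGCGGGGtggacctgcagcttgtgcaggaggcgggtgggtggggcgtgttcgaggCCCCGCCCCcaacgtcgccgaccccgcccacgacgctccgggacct
Hadhb: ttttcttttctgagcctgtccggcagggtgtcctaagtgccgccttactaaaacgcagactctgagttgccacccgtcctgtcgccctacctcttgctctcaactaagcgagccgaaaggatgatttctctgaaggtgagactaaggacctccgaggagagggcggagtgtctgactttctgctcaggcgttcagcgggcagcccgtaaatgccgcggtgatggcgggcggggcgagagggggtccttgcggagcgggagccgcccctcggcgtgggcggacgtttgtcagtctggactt
The window of Hadh held a CCAAT box and 2 GC boxes, that of Pdk4 held a CCAAT box, and those of Pex11a and Hadhb held none of the letters searched.

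Altogether 5 motifs were searched on both strands, with overlaps between motifs allowed. The PPAR repeat AGGTCANAGGTCA with up to 2 mismatches was in 4 of the 31 windows, and in 3.86% of all 32851 windows of the table. The 4 matches lie in Echs1 (chr7:140116492-140116504), Etfa (chr9:55512308-55512320), Slc25a20 (chr9:108662142-108662154) and Acox2 (chr14:8258818-8258830). They are shown along the strand of the repeat, with capitals where a base is that of the motif.
Echs1: AGGTCAcgGGTCc
Etfa: AGGgCAaAGGTaA
Slc25a20: AGGTgAaAGGTCg
Acox2: AGGaCAgAGGTgA
Of these 4 genes, Acox2 rose at day 8 and the others changed by 0.08 to 0.56. The estrogen-related receptor motif TCAAGGTCA with up to 1 mismatch was in 4 windows (Ech1, Acaa1b and both starts of Acot3) and in 7.46% of all windows. The C/EBP motif TTGCGCAA with up to 1 mismatch was in 7 windows (Acads, Acad11, Acaa1a, Acaa1b, Acot1 and both starts of Acox2) and in 5.92% of all. The GC box was in 4 windows (Hadh, Acox3, Acads and Cpt1a) and in 11.4% of all, and the CCAAT box in 16 and in 37.4% of all. The pairs of windows of Acox2 and of Acot3 overlap, so their matches are counted for each start.

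At day 4, 7 of the 34 genes were at least 2-fold higher than in the CMP control (Cpt1b, Acadl, Hadh, Acaa2, Ech1, Pex11a and Pdk4) and 0 were at least 2-fold lower. Over all genes measured, 12.1% were at least 2-fold higher and 9.57% at least 2-fold lower. At day 6, 8 were higher (Cpt1b, Acadm, Acadl, Hadh, Acaa2, Pex11a, Acot3 and Pdk4) and 0 lower, beside 13.0% and 11.5% of all genes. At day 8, 8 were higher (Cpt1b, Acadm, Acadl, Hadh, Acox2, Pex11a, Acot3 and Pdk4) and 1, Acad10, was lower, beside 14.4% and 11.7% of all genes. The 8 genes are 23.5% of the 34. With a 1.5-fold threshold at day 8, 13 were higher and 2 lower, beside 22.5% and 21.3% of all genes. The genes this adds are Acaa2, Ech1, Acox3, Acaa1b and Acat1 among the higher and Acot1 among the lower.

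The median change of the 34 genes was 0.49 at day 4, 0.52 at day 6 and 0.45 at day 8, whereas the median of all genes was -0.01, -0.04 and -0.03. From day 4 to day 8 the median change of the 34 genes was 0.00, and 2 of them (Acox2 and Acot3) rose and 0 fell at least 2-fold, beside 4.91% and 4.11% of all genes. With each array scaled on its median instead, the day 8 median of the 34 genes was 0.18 beside -0.30 for all genes, and from day 4 to day 8 it was -0.12 beside -0.15. The CMP control array held the highest level of 3 of the 34 genes (8.82%), namely Acad10, Hadha and Acot1, and of 40.6% of all genes.

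Markers of other cell types also differed between the arrays. All 6 adipocyte markers were higher at day 8, from Lep (at least 1.30-fold) to Cfd (at least 3890-fold), with a median change of 10.50, or 9.22 with the 5 genes below background in the control placed at their bounds. Fabp4 alone of the 6 was above background in the control. Of 4 brown adipocyte markers, Cidea (at least 9.60-fold at day 8), Prdm16 (3.86 ± 0.27) and Dio2 (2.24 ± 0.21) were higher and Ucp1 was not above background on any array. Of 5 cardiomyocyte markers, Tnnt2 fell by 1.60 and Nppa changed by 0.10 ± 0.10. Of the others, Myh6 was at least 1.90-fold higher but dim, Ryr2 was below background in the control and at day 8, and Actn2 was below it on all arrays. Of 3 endothelial markers, Cdh5 was at least 11.9-fold lower at day 8, where it was below background, and Pecam1 and Kdr changed by 0.10 and -0.27. Of 4 leukocyte markers, Cd68 rose by 1.56, Ptprc changed by 0.02, Tyrobp was at least 1.58-fold lower and below background at day 8, and Laptm5 was below background on all arrays. The hepatocyte markers Alb and Ttr were below background throughout. The part of these cells in the values of the 34 genes was not tested, and in bulk RNA fewer cells of a type and less RNA per cell cannot be told apart.

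**Figure D1:**
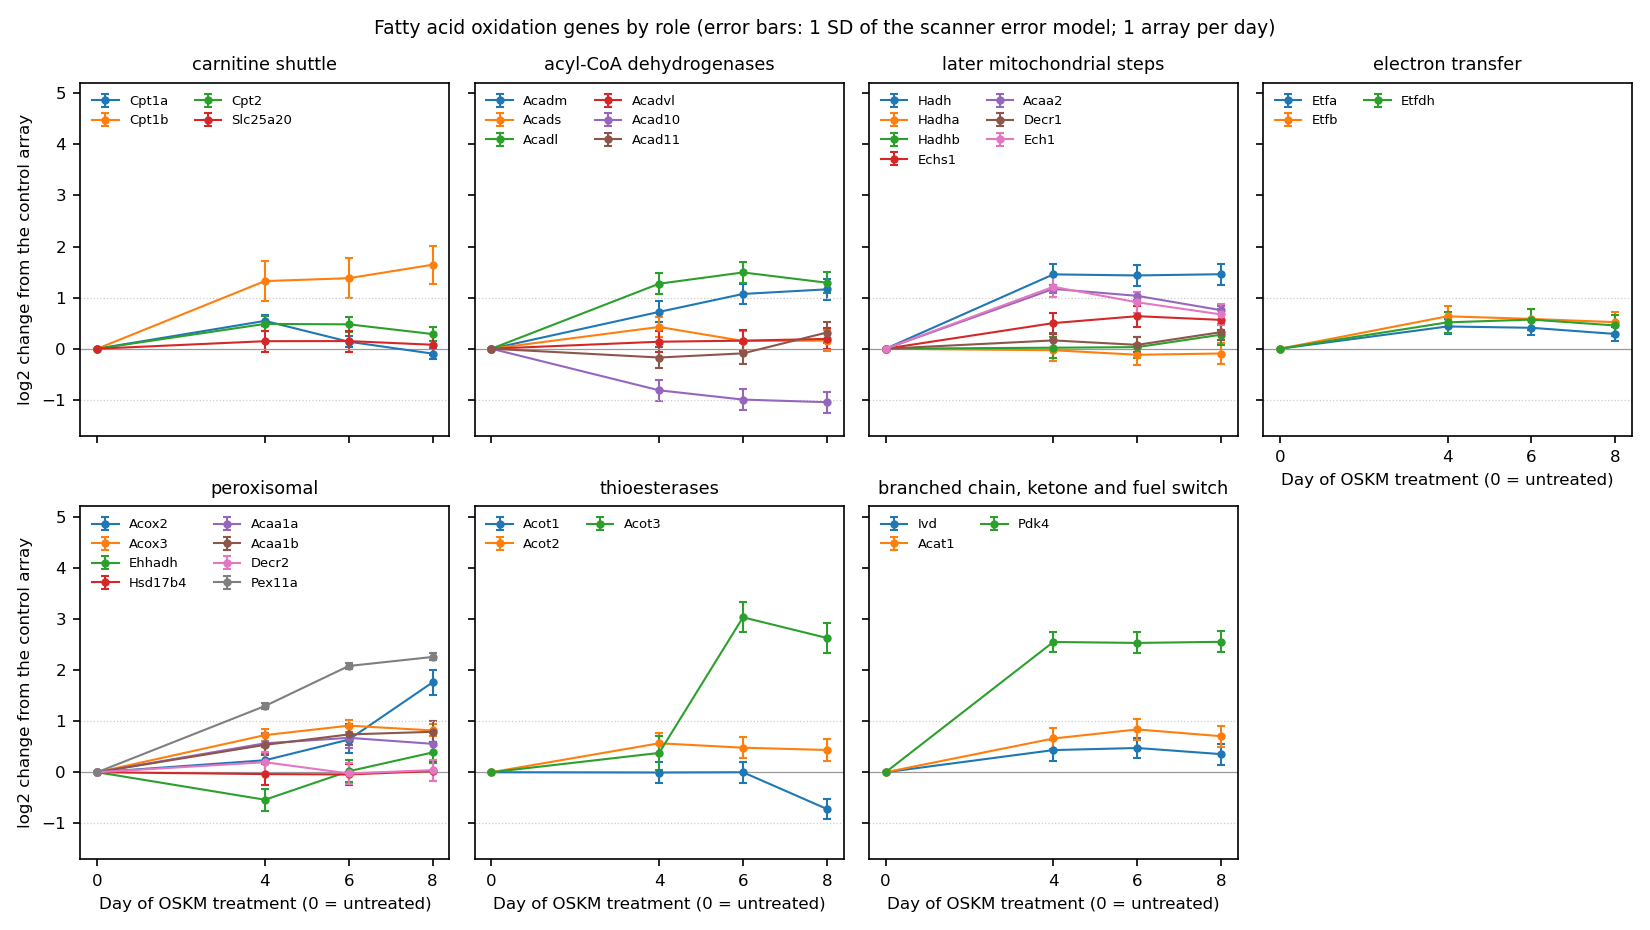
Change of the 34 genes from the CMP control array (log2 scale, vertical axis) against the day of OSKM treatment (horizontal axis), 1 panel for each role in the pathway, with error bars of 1 SD from the scanner error model and dotted lines at 2-fold. Pdk4 stood near 2.55 on each day, Pex11a climbed from 1.29 to 2.26, Acot3 jumped between day 4 and day 6, and Acad10 was the gene with the lowest change on each day.

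In the carnitine shuttle the largest measured difference was that of Cpt1b, the muscle and brown fat form of the outer membrane transferase. Its level was -5.53 in the CMP control, where neither of its 2 probes was well above background, and -4.21, -4.15 and -3.89 at days 4, 6 and 8. Against the lowest signal that counts as above background, it was at least 2.19-fold, 2.28-fold and 2.74-fold higher on those days. The gene remained dim on every array, and at day 4 only 1 of its 2 probes was above background. With normexp background correction and quantile normalization, the day 8 change of Cpt1b was 0.29. Cpt1a, the form best known from liver and the usual point of control for entry of long chains, had levels of 1.46, 2.00, 1.59 and 1.36 from the CMP control to day 8. It was thus highest at day 4 (a change of 0.54 ± 0.11) and at day 8 lay 0.64 below day 4, at a change of -0.10 ± 0.11 from the control. Both of its probes had that shape. Cpt2, the inner membrane transferase that returns the acyl group to CoA, changed by 0.49, 0.48 and 0.29 (± 0.15 at each day), and its 2 probes stood apart at day 8, at 0.49 and 0.08. Slc25a20, the carrier that exchanges acylcarnitine for carnitine, changed by 0.15, 0.15 and 0.08 (± 0.20), less than its error.

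The acyl-CoA dehydrogenases, which open each turn of the cycle and differ in the chain length they accept, did not move together. Acadl, the long-chain enzyme, had levels of 1.46, 2.73, 2.95 and 2.75, with a change of 1.29 ± 0.20 at day 8. Acadm, the medium-chain enzyme, had levels of 3.37, 4.09, 4.44 and 4.53, and its change went from 0.72 at day 4 to 1.16 ± 0.20 at day 8. Both rose, the first fully by day 4 and the other over the whole course. The day 8 change of Acadm exceeded the 2-fold line by less than its error. Acadvl, the membrane-bound enzyme for very long chains, had levels of 5.62, 5.76, 5.78 and 5.81, and its day 8 change of 0.19 ± 0.20 was within its error. That depended on the scaling: the day 8 change of Acadvl was 0.47 under quantile normalization and 0.45 with normexp added, both more than that error. Acads, the short-chain enzyme, changed by 0.43 at day 4 and 0.16 ± 0.20 at day 8. Acad10 and Acad11 are less studied relatives with an added kinase-like domain. Acad10 had levels of 4.13, 3.32, 3.14 and 3.09, and its change of -1.05 ± 0.20 at day 8 was the sole fall of at least 2-fold among the 34 genes. It exceeded the 2-fold line by less than its error, and under quantile normalization it did not reach that line. Acad11 changed by -0.17 at day 4 and by 0.32 ± 0.20 at day 8.

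In the later mitochondrial steps, Hadh, the dehydrogenase of medium and short 3-hydroxyacyl chains, had levels of 2.76, 4.21, 4.19 and 4.22. It rose by 1.45 at day 4 and was then flat, with a change of 1.46 ± 0.20 at day 8. Hadha and Hadhb encode the subunits of the trifunctional protein, which carries out the same steps for long chains. Hadha had levels of 1.53, 1.5, 1.41 and 1.44, and Hadhb had levels of 4.17, 4.19, 4.20 and 4.44. Their day 8 changes were -0.09 ± 0.20 and 0.27 ± 0.20, the latter past its error. Under quantile normalization Hadhb changed by 0.45 at day 8, or by 0.47 with normexp added, and Hadha by -0.04 in both settings. The pair that shares part of the window printed above thus changed less than Hadh. Acaa2, the mitochondrial thiolase, had levels of 4.62, 5.79, 5.66 and 5.37, and Ech1, an isomerase for unsaturated chains, had levels of 2.84, 4.05, 3.75 and 3.51. Both rose at least 2-fold at day 4 (1.17 ± 0.08 and 1.21 ± 0.20) and were lower again at day 8 (0.75 ± 0.08 and 0.67 ± 0.20), by 0.42 and 0.54 from day 4. Echs1, the hydratase for short chains, changed by 0.56 ± 0.20 at day 8, and Decr1, a reductase for unsaturated chains, by 0.32 ± 0.14 as the mean of 2 probes that changed by 0.60 and 0.05.

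The electron transfer flavoprotein and its dehydrogenase pass electrons from the acyl-CoA dehydrogenases to the respiratory chain. None of the 3 genes reached 2-fold, and each was higher by more than its error on every day. Most genes passed their error: of all 16659 measured, 5801, 5843 and 6099 were higher by more than it at days 4, 6 and 8. Another 6038, 6488 and 6614 were lower by more than it. Etfa changed by 0.44, 0.41 and 0.29 (± 0.14), Etfb by 0.63, 0.58 and 0.52 (± 0.20) and Etfdh by 0.52, 0.57 and 0.46 (± 0.20). With each array scaled on its median, their day 8 changes were 0.02, 0.25 and 0.19, beside -0.30 for all genes. On that scale those of Etfa and Etfdh were within their errors. Under quantile normalization the day 8 changes were 0.42, 0.85 and 0.62.

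Among the 8 peroxisomal genes other than thioesterases, Pex11a, which promotes division of peroxisomes, changed most. Its level was 1.77 in the CMP control and 3.07, 3.85 and 4.03 at days 4, 6 and 8, an increase at each step that ended 4.77-fold above the control (2.26 ± 0.07). Its probe was spotted 10 times on each array, with an SD between spots of 0.03 to 0.05. Acox2, the oxidase for branched chains and bile acid intermediates, had levels of -3.90, -3.67, -3.27 and -2.15. It was within its error of the control at day 4 (0.23 ± 0.27) and rose by 1.76 ± 0.25 at day 8, or by 0.74 with normexp correction and quantile normalization. Acox3, the oxidase for pristanic acid and other branched chains, changed by 0.73, 0.91 and 0.82 (± 0.12) as the mean of 3 probes, which did not move alike: the day 8 changes of the probes were 0.02, 1.06 and 1.38. Ehhadh, the L-bifunctional enzyme of the next steps, had levels of -2.18, -2.72, -2.16 and -1.80. It was below the control at day 4 (-0.54 ± 0.22) and above it at day 8 (0.39 ± 0.21), and moved by 0.93 ± 0.21 in between. The day 8 change of Ehhadh was within that error under quantile normalization (0.17), with normexp added (0.16) and on the array median scale (0.12). Hsd17b4, the D-bifunctional enzyme, stayed within 0.04 of the control on each day. Acaa1a and Acaa1b, the paired peroxisomal thiolases of the mouse, changed by 0.56 ± 0.20 and 0.79 ± 0.20 at day 8. The levels of Acaa1b were 0.99, 1.53, 1.73 and 1.78. Decr2, the peroxisomal dienoyl-CoA reductase, changed by 0.20 at day 4 and 0.04 ± 0.20 at day 8.

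**Figure D2:**
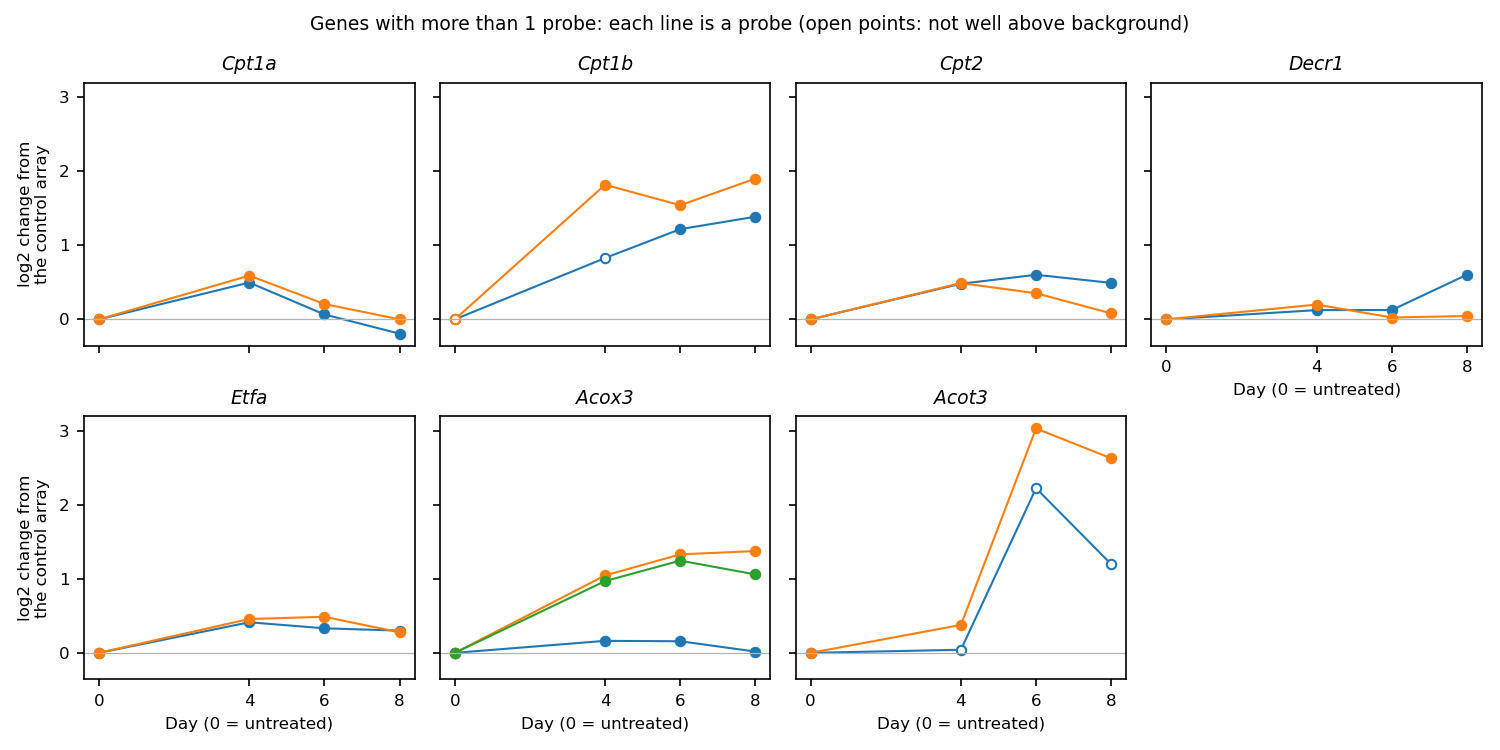
Change from the CMP control array of every probe of the 7 genes with more than 1 probe (log2 scale, vertical axis) against the day (horizontal axis); filled points are well above background and open points are not. The probes of Cpt1a and of Etfa ran together, whereas 1 probe of Acox3 stayed at 0.02 at day 8 beside 1.06 and 1.38 for the others, the probes of Cpt2 (0.49 and 0.08) and Decr1 (0.60 and 0.05) stood apart at day 8, and the dim probe of Acot3 was left out of the gene's value.

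Acyl-CoA thioesterases split acyl-CoA into the free acid and CoA, in the cytosol (Acot1), mitochondria (Acot2) or peroxisomes (Acot3). Acot3 had levels of -4.60, -4.23, -1.57 and -1.98. It stood near the control at day 4 (0.38 ± 0.34), rose by 3.03 ± 0.30 at day 6 and was 2.63 ± 0.30 above the control at day 8, which is 6.18-fold. With normexp correction and quantile normalization its day 8 change was 1.06. Acot1 had levels of 2.06, 2.05, 2.06 and 1.34, so that it was flat to day 6 and then changed by -0.72 ± 0.20. Acot2 changed by 0.57, 0.48 and 0.44 (± 0.21). The 3 genes lie side by side on chromosome 12 with 3 relatives, in the order Acot2, Acot1, Acot4, Acot3, Acot5 and Acot6 of the RefSeq table. Neighbours in this order differed. Acot5 had changes of 0.01, 2.26 and 2.36 ± 0.16. Acot4 was below background in the CMP control and at day 4 and was at least 1.89-fold above the control at day 8. Acot6 changed by -0.18 ± 0.16 at day 8. Since these genes are close relatives, reading of 1 gene's RNA by another's probe was not tested.

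**Figure D3:**
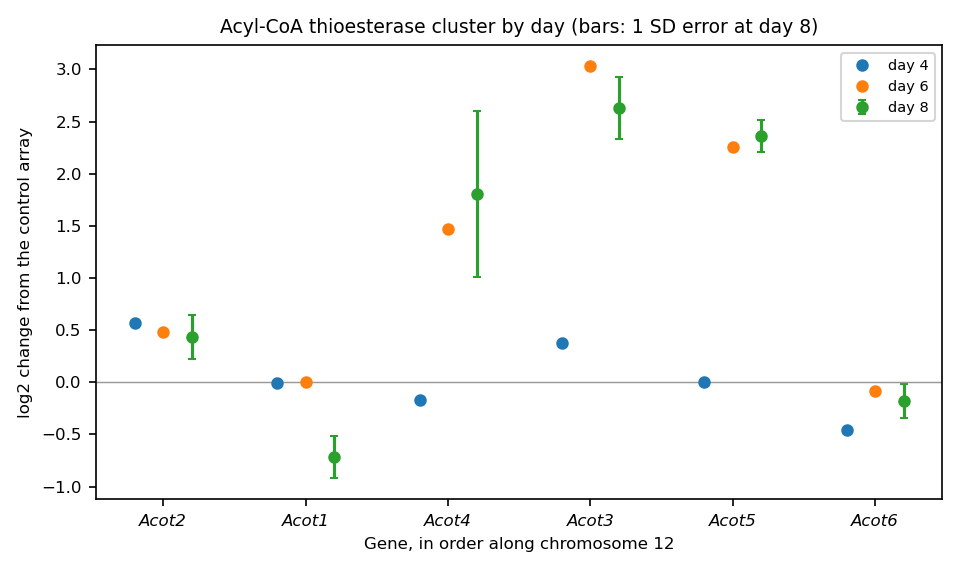
Change from the CMP control array (log2 scale, vertical axis) of the 6 thioesterase genes of chromosome 12, in their order along it (horizontal axis), on days 4, 6 and 8, with bars of 1 SD at day 8. Acot3 and Acot5 stood at 2.63 and 2.36 at day 8 and near 0 at day 4, while Acot1 between Acot2 and Acot4 ended at -0.72; the Acot4 points rest on a control value below background.

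Pdk4, the kinase that shuts off pyruvate dehydrogenase and so spares glucose while fat is burned, had levels of -0.17, 2.37, 2.36 and 2.38. It rose 5.86-fold (2.55 ± 0.20) and stood at the same level on the 3 OSKM arrays. The change was complete at day 4. Acat1, the mitochondrial acetoacetyl-CoA thiolase of ketone body and isoleucine metabolism, changed by 0.66, 0.84 and 0.71 (± 0.20). Ivd, the dehydrogenase of leucine breakdown, changed by 0.43, 0.47 and 0.35 (± 0.20).

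**Figure D4:**
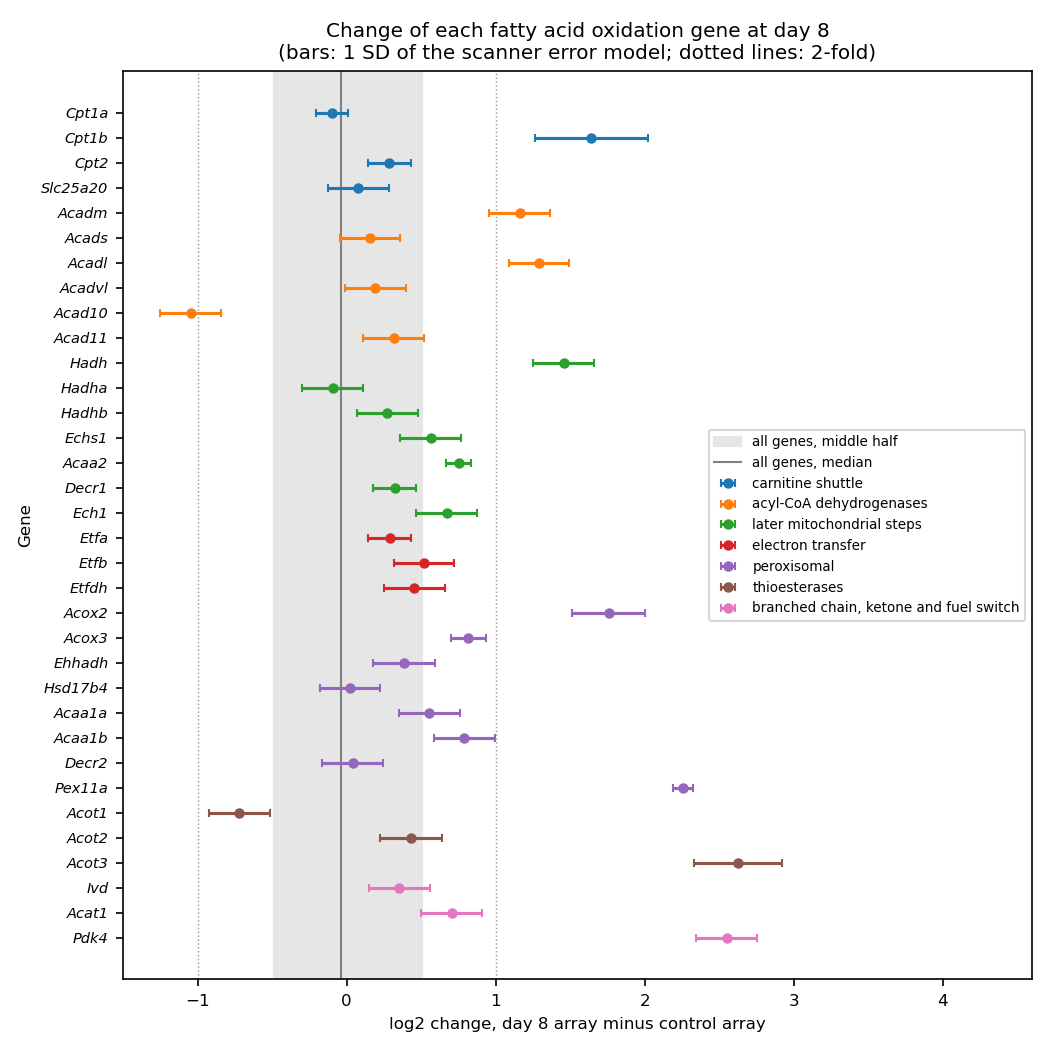
Change of each of the 34 genes between the CMP control and the day 8 array (log2 scale, horizontal axis), ordered by role (vertical axis), with bars of 1 SD from the scanner error model; the grey band holds the interquartile range of all genes measured (-0.49 to 0.51) and dotted lines mark 2-fold. The 8 genes named for day 8 lie to the right of the 2-fold line and Acad10 to the left, and Cpt1b is drawn at its measured difference although its control value was below background.

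Other genes of the pathway, from a list of 26 that holds none of the 34, had a median day 8 change of 0.32. Of them 2 (7.69%) were at least 2-fold higher and 0 lower, beside 14.4% and 11.7% of all genes. The 2 were Eci1, a mitochondrial isomerase for unsaturated chains (1.26 ± 0.20), and Abcd2, a peroxisomal transporter of very long chains (1.12 ± 0.32). Abcd2 exceeded the 2-fold line by less than its error. The 5 genes of a ketone body list had a median day 8 change of 0.50, beside -0.03 for all genes. Among them Bdh2 rose by 2.21 ± 0.20 at day 8, and not all of the 5 are reported here. Of 16 other genes with a Pex symbol, listed as peroxins by name, 5 (31.2%) rose and 0 fell at day 8. The shares of all genes were 14.4% and 11.7%, and the median of the 16 was 0.50. The largest was Pex16 (1.60 ± 0.20), which takes part in building the peroxisomal membrane. The others were Pex5l (1.44 ± 0.74, dim on all arrays), Pex11g (1.05 ± 0.17), Pex13 (1.05 ± 0.16) and Pex10 (1.03 ± 0.21). Each of these others exceeded the 2-fold line by less than its error. Of 9 other thioesterases measured, Acot11 fell by 1.49, Acot5 rose as given above, and Acot4 has only the bound of 1.89-fold. By measured difference 22.2% of the 9 were at least 2-fold higher and 11.1% lower, beside 14.4% and 11.7% of all genes.

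The 18 genes of the TCA cycle and its filling reactions, which receive the acetyl-CoA, had a median day 8 change of -0.06. Of them 1 (5.56%) rose and 0 fell, beside 14.4% and 11.7% of all genes. The gene that rose was Pcx, pyruvate carboxylase, with levels of 2.36, 3.01, 4.41 and 5.24 and a change of 2.88 ± 0.20. Of 10 genes of the pyruvate dehydrogenase complex and its other kinases and phosphatases, 2 (20.0%) rose, beside the same 14.4% of all genes. These were Pdp2 (1.06 ± 0.30) and Pdhb (1.00 ± 0.12), each past the 2-fold line by less than its error. The other 3 kinases, Pdk1, Pdk2 and Pdk3, changed by 0.21, 0.56 and -0.56. The 13 genes of fatty acid synthesis had another time course. Their median went from -0.17 at day 4 through 0.47 at day 6 to 1.09 at day 8. Of the 13, 7 (53.8%) rose at day 8, beside the same 14.4% of all genes, among them Thrsp (at least 1070-fold), Scd1 (2.92 ± 0.20), Fasn (2.29 ± 0.20) and Mlxipl (2.21 ± 0.15). From day 4 to day 8 their median change was 0.76, beside 0.00 for the 34 oxidation genes and -0.03 for all genes.

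**Figure D5:**
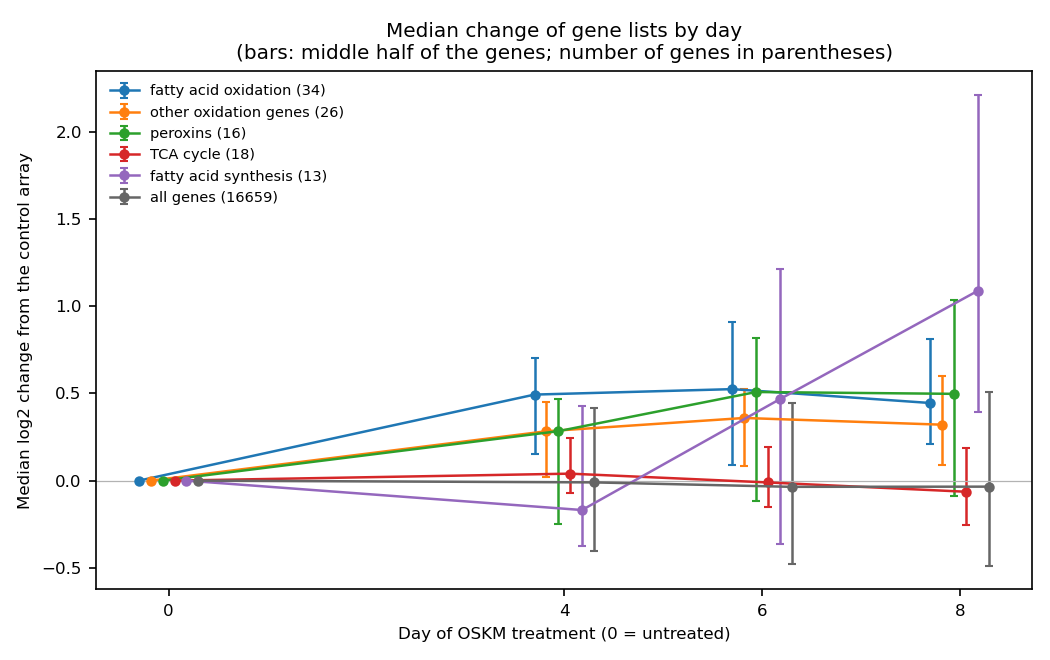
Median change from the CMP control array (log2 scale, vertical axis) against the day (horizontal axis, points shifted sideways for clarity) for the 34 oxidation genes, 4 related lists and all genes, with bars for the interquartile range over genes. The oxidation genes stood between 0.45 and 0.52 from day 4 on, and the synthesis genes went from -0.17 at day 4 to 1.09 at day 8.

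Among 15 regulators of the pathway, the measured difference of 6 (40.0%) was at least 2-fold upward at day 8 and that of 0 downward. Over all genes these shares were 14.4% and 11.7%. The median of the 15 was 0.52. Of the 6, 3 were below background in the CMP control, and the bound of Ppargc1b does not reach 2-fold. Ppargc1a, the coactivator known for driving mitochondrial genes, was below background in the CMP control and at least 7.47-fold higher. Esrrg, an estrogen-related receptor, was at least 2.35-fold higher, and Ppargc1b at least 1.88-fold, both from below background. Pparg, the adipocyte PPAR, had levels of 0.98, 4.63, 4.83 and 4.82 (a change of 3.84 ± 0.06 at day 8). Ppara, known for control of oxidation in liver and heart, changed by 0.22 ± 0.10, Ppard by 0.10 ± 0.20 and Esrra by 0.52 ± 0.20. Lpin1 (1.66 ± 0.20) and Nr1h3 (1.38 ± 0.14) also rose.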

How the data were processed

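The 34 genes and the other lists were chosen with earlier results of these data known. The authors' scanner files hold a background-subtracted processed intensity per spot with its error, from Feature Extraction 10.7.3.1 per the file headers (version 9.5.3 in the submitters' processing notes), and probe positions on mm9. The authors' deposited log2 values, made in GeneSpring, are the log2 processed signal of each array shifted by a constant.

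Outlier spots were left out, log2 signals were averaged over the spots of a probe, and each array was scaled by its 75th percentile (a signal of 388.5 to 411.1). Of 55681 probes, 35547 were well above background on at least 1 array and were kept, and 22979 of these matched a gene of the RefSeq table (GRCm38.p6, for names only). The kept probes of a gene were averaged. No spot was saturated. A gene with all probes below background on an array is given as a bound against the lowest signal above background there. All 34 genes are named. Of the other lists, up to 4 genes a direction were named among those past 2-fold at day 8, and Acot6, Pex10, Pdk1, Pdk2, Pdk3, Ppara, Ppard, Esrra, Lpin1 and Nr1h3 were chosen after their values were seen. Some genes of these lists are not reported here. With 1 array per condition no test was made, and the number of arrays limits the precision. The steps were tested on simulated data. Alternatives were normexp (offset 50) with quantile normalization, quantile normalization alone, scaling on the array median, the authors' values, other filters and a floor for dim probes, the brightest probe in place of the mean, and folds of 1.5 and 3. Python 3.11.15, numpy 2.4.6, pandas 2.3.3, matplotlib 3.10.9, R 4.3.3 and limma 3.58.1 were used.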

Additional observations from a re-analysis of the deposited data

How the results depend on the processing

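Of the counts and medians recomputed for the 34 genes, 74 stayed within 1.5-fold (counts) or within the SD of a difference between repeated spots, 0.09 (medians), and 18 did not. The 74 include 10 under the authors' values, which are the same signal shifted by a constant. Scaling on the array median put the median change of all genes at -0.15 for day 4, -0.17 for day 6, -0.30 for day 8 and -0.15 from day 4 to day 8. The medians of the 34 genes were then 0.35, 0.39, 0.18 and -0.12, and 1 gene fell at day 6. Under that scale the small day 8 changes of Slc25a20 (-0.19), Acads (-0.11), Acadvl (-0.07), Hsd17b4 (-0.24) and Decr2 (-0.23) had the other sign. Quantile normalization, with or without normexp, left 0 genes at least 2-fold lower at day 8, since Acad10 no longer passed, and without normexp the day 8 median was 0.54. At 1.5-fold, 11, 15 and 13 genes were higher at days 4, 6 and 8 (19.7%, 20.5% and 22.5% of all genes), and 1, 1 and 2 lower (18.2%, 20.7% and 21.3%). At 3-fold, 1, 3 and 5 were higher (7.37%, 7.97% and 8.66% of all genes) and 0 lower at day 8 (6.45%). The 5 include Cpt1b by its measured difference of 3.12-fold, whereas its bound of 2.74-fold does not reach 3-fold.

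The dim genes depended most on background correction. With normexp and quantile normalization the day 8 change of Cpt1b was 0.29, of Acox2 0.74 and of Acot3 1.06, and the cause was not tested. Without the filter Acot3 changed by 1.91 at day 8. With probes above background on all 4 arrays, Cpt1b was lost and 33 genes were measured. Of the changes of single genes recomputed, 731 moved by less than 1 error SD and 82 by more. The 731 include all 102 under the authors' values, which are the same signal shifted by a constant, and all 102 under the floor. Those that moved by more were 40 under the array median, 21 under normexp with quantile normalization and 13 under quantile normalization alone, with the rest under other settings. No array could be left out, since each is its condition. No paired analysis was possible because there was a single array for each condition.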
